A study of Arabidopsis thaliana with 12 samples.

Results

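The comparison described here is that of wild-type Arabidopsis thaliana seedlings given ethylene gas with wild-type seedlings kept in air, measured on 4 of the 12 arrays of the series. The 4 arrays were chosen by their titles, which name wild type, the gas and a replicate number, and all 22746 probe sets of the table were kept, a probe set being a group of oligonucleotides that reports 1 transcript or a few similar ones. The wild type was the Columbia accession (Col-0), grown in the dark on agar plates from cold-treated seed. In the series text the ethylene group received 10 ppm of the gas for 4 h and the air group stayed in hydrocarbon-free air, with 2 arrays in each group. The other 8 arrays hold the ethylene-response mutants ein2 (allele ein2-5) and ein5 (allele ein5-1) in the same Columbia background, each in air and on ethylene with 2 arrays a group, and they enter here through the estimate of the spread and through 1 comparison of responses.

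Ethylene is a gaseous plant hormone that dark-grown seedlings answer with a short and thick hypocotyl and root and a tightened apical hook. It is bound by receptors of the endoplasmic reticulum membrane such as ETR1, which in air keep the kinase CTR1 active. When the gas is bound, the membrane protein EIN2 is no longer held back, the transcription factors EIN3 and EIL1 build up, and they switch on ethylene-induced genes, among them genes that act back on the pathway. In dark-grown seedlings many of the later effects run through auxin and through the enzymes that loosen or stiffen the cell wall. EIN5 is an exoribonuclease of the cytoplasm. Seedlings without working EIN2 keep growing in ethylene as they do in air.

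The labels do not agree on the growth of the wild-type seedlings. The series text gives 3 days in the dark at 24 °C before the gas, whereas the texts of the 4 wild-type samples give 2 days of cold at 4 °C and 5 days in the dark at 25 °C, and speak of ethylene during that incubation for the samples titled air too. Of the other 8 arrays ein2 air 1 alone carries the growth text of the series in place of that of the remaining samples, and without it the 12-array fit described below called 1972 instead of 2298 probe sets in wild type. The treatment field calls the air samples untreated. The extraction field names mature leaves where the other fields name seedlings. Separate cultures are not mentioned for the 2 samples of a group. A p-value here therefore covers the spread between them alone, and this spread could be technical. Because RNA came from many cells together, fewer cells of a type and less RNA per cell cannot be told apart in any value below.

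Replicates were least alike in the wild-type ethylene group. Over all probe sets wild-type ethylene 1 and 2 correlated at 0.960 and the air arrays at 0.972, against 0.966 to 0.975 within the mutant groups, and wild-type ethylene 1 correlated more highly with the ein5 ethylene arrays, at 0.968 and 0.970, and with the wild-type air arrays, at 0.965 and 0.963, than with its own replicate. By correlation the wild-type air pair thus lay within the range of the mutant pairs. In log2 units the replicates of the mutant groups differed by a median of 0.19 to 0.21, those of wild type in air by 0.25 and those of wild type on ethylene by 0.32. Few markers of the tissue were measured and named. PORB, the protochlorophyllide oxidoreductase of etiolated and greening tissue, lay between 28046 and 72365 in the wild-type arrays, the light-harvesting gene LHCB4.1 between 17728 and 24982 and the root hair expansin gene EXPA7 between 1061 and 2501, in units of scaled intensity. These genes do not settle whether the tissue was etiolated. No gene of the fixed lists for other root cells or for the epidermis and its wax was both measured and named, so these were not checked.

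Ethylene changed more transcripts downward than upward, and the number called was larger when the spread was taken from all 12 arrays than when it was taken from wild type. The limma fit of 12 arrays called 2298 of 22746 probe sets at an adjusted p under 0.05 (10.1%, Benjamini-Hochberg), 869 higher (3.82%) and 1429 lower (6.28%), and 765 changed over 2-fold (3.36%). The fit of the 4 wild-type arrays alone called 813 (3.57%), and 760 (3.34%) were called in the same direction by both fits and by each of 4 fits that left out 1 wild-type array. Of those 760, 260 were higher (1.14%) and 500 lower (2.2%), with median log2 changes of 1.28 and -1.13, and 179 and 320 of them changed over 2-fold, together 2.19% of all probe sets. Both counts rest on variances that follow the signal level, since without such a trend the 12-array fit called 1323 and the 4-array fit called 0, with 1059 probe sets higher and 1594 lower there at an unadjusted p under 0.05. In all 2298 calls of the 12-array fit both ethylene arrays lay on the same side of both air arrays, so this holds for each called gene below and sets none of them apart, and it also held for 43.7% of all probe sets. In the text below "rose" and "fell" are used only of genes called in every one of these 6 fits, and all others that the 12-array fit called are named as called there but not in every fit.

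Calls were concentrated among the brighter probe sets. When the probe sets were divided by mean level into 5 groups of equal size, in the lowest group, up to a scaled intensity of 135, the 12-array fit called 0.527% higher and 0.593% lower, and in the highest group, from 4018 upward, 7.43% higher and 11.0% lower. The probe sets called in every fit numbered 0 higher and 1 lower in the lowest group and 109 and 173 in the highest. More falls than rises were called in each of the 5 groups. Few dim transcripts therefore appear below, and a fold change on the log2(intensity + 16) scale understates the change of the dim ones.

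**Figure D1:**
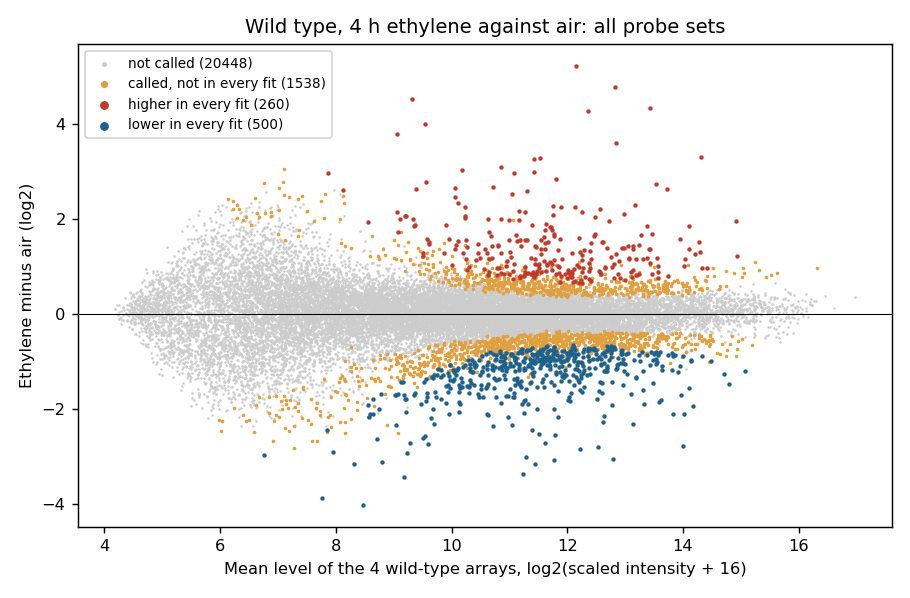
Each point is 1 of 22746 probe sets, with the mean level of the 4 wild-type arrays on the x axis as log2(scaled intensity + 16) and the log2 change on ethylene on the y axis. Grey points were not called, orange points were called by the 12-array fit but not in every fit, and the 260 red and 500 blue points rose or fell in every fit; the coloured points lie mostly at the middle and high levels.

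The annotation gives exactly 1 gene for 13513 probe sets, of which 13436 matched the gene table. Most of these, 11885, carry a locus number only, and 1551 carry a gene symbol. Among the single-gene probe sets 1156 of 13436 were called by the 12-array fit (8.6%) and 371 in every fit (2.76%), 128 higher (0.953%) and 243 lower (1.81%). Among those with a symbol 184 of 1551 were called (11.9%), 79 higher (5.09%) and 105 lower (6.77%), and 60 in every fit (3.87%), 25 higher (1.61%) and 35 lower (2.26%). Of those 60, 42 changed over 2-fold (2.71%). Symbol genes outside the lists and families were chosen after their values were seen, and placing them together below shows no theme. The counts of families below can be read against these shares, since families were found through symbols and their synonyms.

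Of the ethylene pathway itself, the receptor regulator RTE1 rose, and the other 3 pathway genes that were measured and named were not called. RTE1, a membrane protein that holds the receptor ETR1 in its signalling state, lay at 2912 and 2613 in air and at 10955 and 10551 on ethylene, a 3.88-fold rise (1.96 ± 0.12, adjusted p = 1.6e-07, where ± gives the standard error of the log2 change). Its close relative RTH lay at 6974 and 6581 in air and at 5637 and 4920 on ethylene (-0.36 ± 0.16, adjusted p = 0.207). The transcript of the transcription factor EIN3 stood at 12506 and 12282 in air and at 11244 and 14147 on ethylene, with the ethylene arrays on either side of the air arrays (0.03 ± 0.12, adjusted p = 0.943). ETP2, an F-box protein that targets EIN2 for degradation, stood at 561 and 826 in air and 715 and 555 on ethylene (-0.11 ± 0.25, adjusted p = 0.868).

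Of 4 measured genes on the list of textbook ethylene-induced genes 2 rose, namely RTE1 and ARL. ARL is an ARGOS-like gene of organ growth and lay at 7905 and 7981 in air and 21927 and 25586 on ethylene (2.98-fold, adjusted p = 1.27e-06). The ethylene arrays lay far above both air arrays for each of these genes. The defensin gene PDF1.2 was dim, with 37.6 and 58.5 in air and 103 and 267 on ethylene, and its difference was not called (1.54 ± 0.66, adjusted p = 0.179). WAG2, a kinase gene of the apical hook, lay at 9072 and 11089 in air and 9981 and 13875 on ethylene, so that the groups overlapped (0.23 ± 0.15, adjusted p = 0.413). Another defensin gene, PDF2.5, rose from 2809 and 2562 to 9026 and 8263 (3.21-fold, adjusted p = 1.18e-06). No gene of the fixed ethylene biosynthesis list was measured and named.

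Genes that conjugate auxin moved in opposite directions. IAGLU, annotated as an enzyme that joins glucose to indole-3-acetic acid, the main auxin, lay at 2723 and 3439 in air and at 19566 and 21317 on ethylene, a 6.64-fold rise (2.73 ± 0.16, adjusted p = 1.26e-07). GH3.17, whose enzyme joins that auxin to glutamate, lay at 14212 and 12413 in air and at 4592 and 5937 on ethylene, a 2.54-fold fall (adjusted p = 2.89e-05). The ethylene arrays were thus clear of the air arrays on opposite sides for the genes of a sugar and an amino acid conjugate. Of the other GH3 genes none was called. GH3.1 lay at 430 and 599 in air against 184 and 173 on ethylene (-1.43 ± 0.50, adjusted p = 0.0938), GH3.3 changed by -0.50 ± 0.18 (adjusted p = 0.0917), and WES1 by 0.21 ± 0.13 (adjusted p = 0.405). The auxin synthesis gene YUC2 was not called either, at 588 and 648 in air and 563 and 786 on ethylene.

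Among 7 genes of the Aux/IAA family, the short-lived repressors of auxin response, IAA20 rose and the other 6 were not called. IAA20 lay at 1006 and 1335 in air and 3626 and 3255 on ethylene (2.94-fold, adjusted p = 8.4e-05). A further pair of regulators known from auxin-treated tissue were lower in the 12-array fit but not in every fit. These were LBD29, at 805 and 378 in air and 198 and 58.5 on ethylene (-2.17 ± 0.49, adjusted p = 0.0109), and HAT2, at 8158 and 7943 in air and 6507 and 5390 on ethylene (-0.44 ± 0.12, adjusted p = 0.0251).

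Genes of other hormones were few among the named ones. RR16, a type-A response regulator of the cytokinin pathway, rose from 208 and 333 to 1205 and 817 (3.6-fold, adjusted p = 0.00248). UGT76C2, whose enzyme inactivates cytokinins by glucosylation, was higher in the 12-array fit but not in every fit, at 2034 and 2318 in air and 3651 and 3223 on ethylene (0.66 ± 0.15, adjusted p = 0.0122). The 3 gibberellin receptor genes were measured, and they did not move together. GID1A was lower in the 12-array fit but not in every fit (-0.61 ± 0.14, adjusted p = 0.0141), while GID1B and GID1C were not called (0.16 ± 0.12 and 0.21 ± 0.20).

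**Figure D2:**
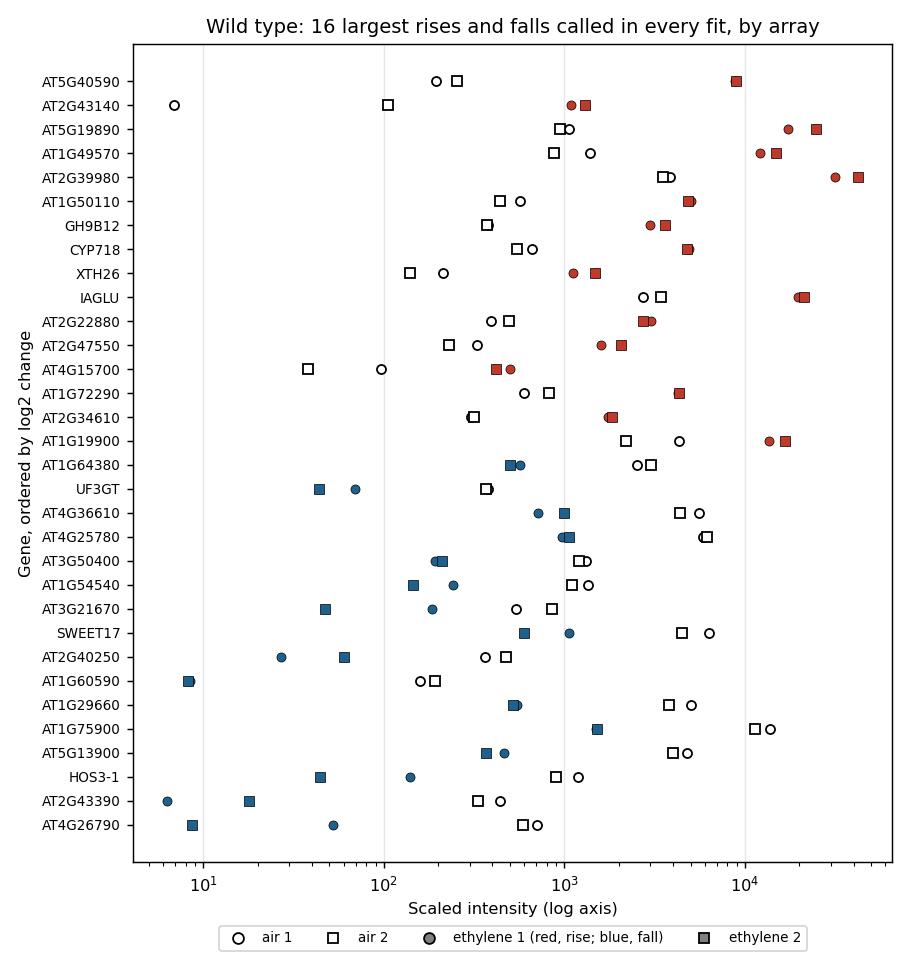
Scaled intensity on a log axis in each of the 4 wild-type arrays for the 16 genes with the largest rises and the 16 with the largest falls among single-gene probe sets called in every fit. Open symbols are air, filled symbols ethylene, circles replicate 1 and squares replicate 2; the ethylene arrays lie clear of the air arrays, as they do for all 2298 calls of the 12-array fit.

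Cell wall genes changed in both directions, and the expansins leaned downward. Expansins loosen the contacts between wall polymers as cells extend, and of 19 measured expansin genes 6 were lower and 1 higher in the 12-array fit, with 4 falling and 0 rising in every fit. The family's median log2 change was -0.37, against 0.02 over all probe sets, with 12 of 19 changes negative. EXPA8 fell from 21191 and 18606 to 7514 and 10105 (2.28-fold, adjusted p = 7.99e-05). EXPB1 fell from 5984 and 4217 to 1442 and 2178 (2.82-fold, adjusted p = 9.42e-05). EXPA15 fell from 1959 and 1588 to 821 and 928, and EXLA2 fell from 7266 and 6346 to 3536 and 3772. In these 4 genes ethylene 1 was lower than ethylene 2. The exception was EXPA7, an expansin of root hairs, which was higher in the 12-array fit but not in every fit, at 1604 and 1061 in air and 2126 and 2501 on ethylene (0.81 ± 0.22, adjusted p = 0.0304). EXPA18, also a root hair expansin, was not called (0.31 ± 0.16, adjusted p = 0.275).

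Enzymes of xyloglucan and cellulose included single large rises, within families that had calls in both directions. XTH26, which cuts and rejoins xyloglucan, rose from 213 and 140 to 1110 and 1474 (6.86-fold, adjusted p = 0.00075). GH9B12, an endoglucanase of glycosyl hydrolase family 9, rose from 376 and 373 to 2987 and 3622 (8.47-fold, adjusted p = 3.08e-06). Of 10 measured XTH genes 2 were called higher and 1 lower. Of 15 genes of glycosyl hydrolase family 9, 2 were likewise called higher and 1 lower. Over all single-gene probe sets with a symbol 5.09% were called higher and 6.77% lower. Called but not in every fit were XTH18 (0.70 ± 0.18) and GH9C1 (0.77 ± 0.18) as higher and XTH21 (-1.41 ± 0.35) and GH9B8 (-0.48 ± 0.11) as lower. The xyloglucan backbone synthase genes CSLC12 and CSLC04 were called in opposite directions but not in every fit, with 467 and 436 in air against 800 and 1181 on ethylene for CSLC12 and 19653 and 21501 against 13690 and 16529 for CSLC04.

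Genes that modify wall side groups also split. TBL37, of the trichome birefringence-like family whose known members acetylate wall polysaccharides, fell from 9649 and 11045 to 1986 and 2260 (4.84-fold, adjusted p = 2.45e-08). TBL41 of the same family rose from 5071 and 4246 to 10158 and 9142 (2.07-fold, adjusted p = 0.000437). Of the 25 probe sets of the family 2 were called higher and 4 lower. The pectin methylesterase gene PME61 fell from 3910 and 2636 to 928 and 1099 (3.15-fold, adjusted p = 2.3e-05). ATPMEPCRB, also of the pectin enzymes, was higher in the 12-array fit but not in every fit (0.50 ± 0.11, adjusted p = 0.00964). Of 4 pectin enzyme genes found by name 1 was thus called higher and 1 lower. BGLU46, a beta-glucosidase of lignin precursors, fell from 4416 and 3829 to 2061 and 2166 (1.94-fold), and its relative BGLU45 was lower in the 12-array fit but not in every fit (-1.23 ± 0.26, adjusted p = 0.00633). THE1, a receptor kinase that reports on wall integrity, was lower in the 12-array fit but not in every fit, at 6372 and 6934 in air and 3706 and 4666 on ethylene.

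Among 9 genes annotated as peroxidases the class III enzyme PRX71 (AT5G64120) rose from 5246 and 5340 to 15724 and 18554 (3.22-fold, adjusted p = 4.76e-07). UPB1, a transcription factor known to repress peroxidase genes in the root, rose as well, from 2826 and 1937 to 5730 and 4792 (2.23-fold, adjusted p = 0.000955). The plastid ascorbate peroxidase gene SAPX was higher in the 12-array fit but not in every fit (0.53 ± 0.12, adjusted p = 0.0104), and the other 7 genes of the group were not called. The 9 genes were found by name in symbols and synonyms. Peroxidase genes that the annotation gives by locus number only are not among them, so these counts do not stand for the whole family.

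UDP-glycosyltransferases, which attach sugars to hormones, flavonoids and other small molecules, had the most calls of the families described and also the most members. Over all single-gene probe sets with a symbol 6.77% were called lower and 5.09% higher. Of 52 measured genes 11 were lower and 3 higher in the 12-array fit, and 6 fell and 1, IAGLU, rose in every fit. The median change was -0.38 with 40 of 52 changes negative, or 33 of 52 and a median of -0.32 without wild-type ethylene 1. UF3GT, annotated as a flavonoid glycosyltransferase, fell from 380 and 366 to 68.9 and 44 (5.45-fold, adjusted p = 0.00141). UGT71C1 fell from 6605 and 8227 to 2656 and 2432 (2.89-fold, adjusted p = 3.56e-05). UGT76B1, which acts on isoleucic and salicylic acid, fell from 16563 and 15093 to 6166 and 9453 (2.07-fold, adjusted p = 0.00166). The ethylene arrays of UGT76B1 lay further apart than those of UGT71C1. UGT84A4, UGT76E2 and GT72B1 fell by 1.18, 1.11 and 0.78 on the log2 scale. Genes of this family are similar in sequence and some lie side by side in the genome, and cross-hybridisation between them was not tested.

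Of 16 genes of SWEET sugar carriers 3 were lower and 2 higher in the 12-array fit, with a median change of -0.05, and 1 fell in every fit. SWEET17, a fructose carrier of the vacuole membrane, fell from 6334 and 4485 to 1056 and 600 (6.58-fold, adjusted p = 2.57e-06). SWEET16 and SWEET2, which are also known from the vacuole membrane, were lower in the 12-array fit but not in every fit (-0.81 ± 0.18 and -0.88 ± 0.24). In the opposite direction SAG29 (SWEET15) lay at 247 and 522 in air and 831 and 819 on ethylene, and SWEET14 at 14.7 and 31.6 in air and 98 and 229 on ethylene. Both of these carriers were called higher by the 12-array fit but not in every fit. Of sugar carriers outside the family, chosen after their values were seen, SFP1 fell from 9885 and 10264 to 4323 and 4642 (2.24-fold, adjusted p = 7.12e-05) and TMT2 was lower but not in every fit (-0.54 ± 0.12).

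Of 11 genes of the nitrate and peptide transporter family 3 were lower, 2 of them in every fit, and 0 were higher. AT3G21670 (NPF6.4) fell from 542 and 850 to 184 and 47.2 (6.18-fold, adjusted p = 0.00139), and its log2 change of -2.63 was -3.46 without ethylene 1 and -1.80 without ethylene 2. GTR1, an importer of glucosinolates, the defence compounds of this plant family, fell from 3330 and 3664 to 1741 and 2127 (1.81-fold, adjusted p = 0.00108). Its partner GTR2 was lower in the 12-array fit but not in every fit, at 11722 and 11191 in air and 7914 and 7442 on ethylene (adjusted p = 0.00473). Further genes tied to glucosinolates are named here after their values were seen, so their direction is no count of such genes. AOP1, of a small group of dioxygenases, fell from 5573 and 3796 to 2503 and 2583 (1.8-fold, adjusted p = 0.00247), and UGT74B1, an enzyme of their synthesis, was lower but not in every fit (-0.49 ± 0.12, adjusted p = 0.0181). NAI1, the transcription factor of the ER bodies that store a beta-glucosidase in seedlings, fell from 3456 and 4148 to 2007 and 1169 (2.46-fold, adjusted p = 0.000749). NAI2, a structural protein of those bodies, was lower in the 12-array fit but not in every fit (-0.52 ± 0.15, adjusted p = 0.049). The carnitine transporter gene OCT1 fell from 2015 and 1772 to 560 and 608 (3.18-fold, adjusted p = 1.59e-05).

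**Figure D3:**
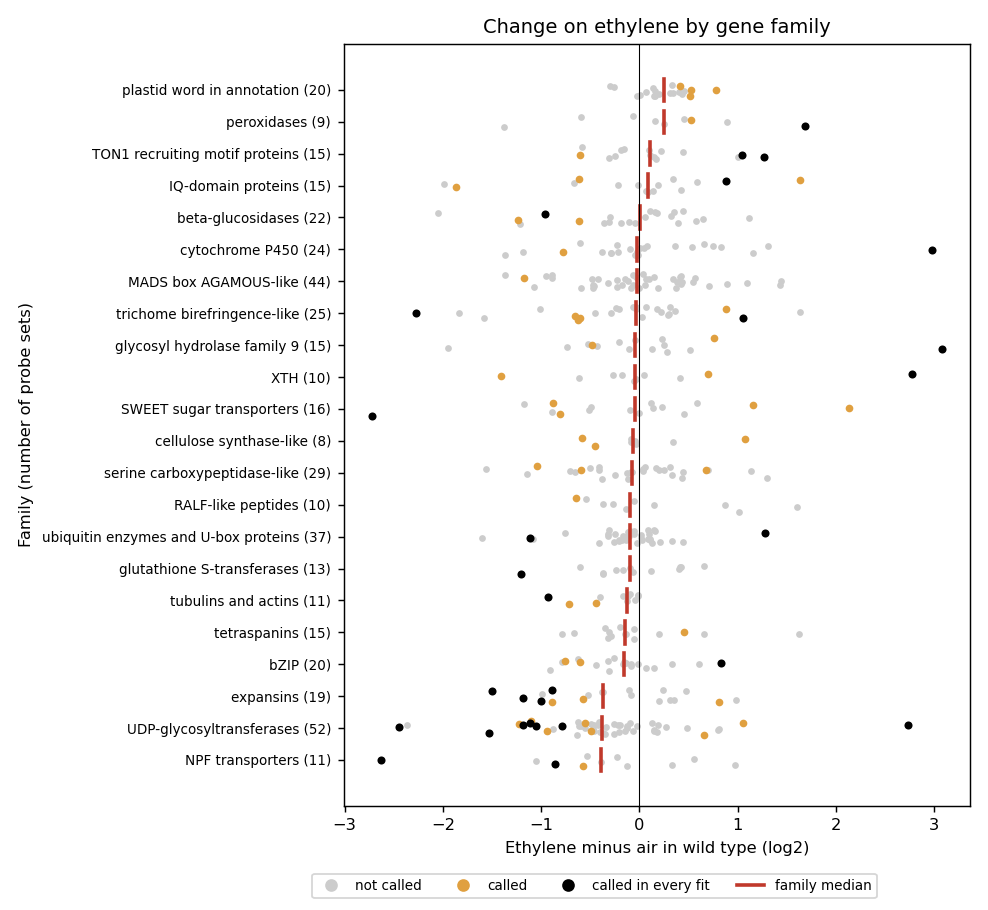
Log2 change on ethylene of each single-gene probe set in the families with at least 8 members, ordered by the family median (red bar). Grey points were not called, orange points were called by the 12-array fit and black points in every fit; the expansins, UDP-glycosyltransferases and NPF transporters have the lowest medians, between -0.37 and -0.39, and hold most of the black points on the left.

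Genes named as late embryogenesis abundant (LEA), which protect the dry seed and fade after germination, were among those that fell, while the seed maturation gene M10 rose. Of 6 genes found by the LEA name 4 were called lower and 0 higher, and 2 fell in every fit. LEA genes without that name in the annotation are not in this count. LEA18 fell from 2791 and 4001 to 1416 and 1093 (2.67-fold, adjusted p = 0.000231), and LEA4-5 fell from 2559 and 3892 to 922 and 1498 (2.66-fold, adjusted p = 0.000793). The gene named LEA (AT2G21490) lay at 324 and 441 in air and 113 and 29.3 on ethylene, and AtLEA4-1 at 857 and 1330 in air and 308 and 558 on ethylene, both called but not in every fit. M10, the other measured member of the seed maturation list, was not among the 6 found by name. It rose from 445 and 513 to 1764 and 1196 (2.97-fold, adjusted p = 0.00116), and whether it is a LEA gene was not checked. OLEO3, an oleosin of seed oil bodies, also rose, from 5640 and 5712 to 9251 and 9983 (1.69-fold, adjusted p = 0.00563). Of the 3 vacuolar processing enzymes named, ALPHA-VPE rose from 701 and 627 to 1491 and 1806 (2.44-fold, adjusted p = 0.00128) while BETA-VPE, the seed-type enzyme, fell from 4049 and 3778 to 2460 and 2457 (1.59-fold, adjusted p = 0.00263). GAMMA-VPE was lower in the 12-array fit but not in every fit (-0.44 ± 0.13, adjusted p = 0.0433).

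Of the genes with a symbol among the 16 largest falls 1 is tied to lipids. Most of the 16 carry a locus number only and their products are not described, so this is no count of lipid genes. HOS3-1, a homologue of fatty acid elongases, fell from 1183 and 897 to 140 and 44.1 (10.8-fold, adjusted p = 3.63e-05), and its log2 change of -3.43 was -4.12 without ethylene 1 and -2.75 without ethylene 2. WSD1, a wax ester synthase, fell from 1735 and 1626 to 491 and 571 (3.11-fold, adjusted p = 0.000445). AAPT2, of phospholipid synthesis, fell from 8630 and 8805 to 4544 and 5784 (1.7-fold, adjusted p = 0.00153). Of these 3 genes HOS3-1 had the widest gap between its ethylene arrays. FAAH, a fatty acid amide hydrolase, rose from 6496 and 5828 to 9798 and 10502 (1.65-fold, adjusted p = 0.000565).

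The methionine sulfoxide reductase genes MSRB6 and MSRB9, whose enzymes repair oxidised protein, both fell. MSRB9 fell from 46977 and 48296 to 17964 and 23990 (2.29-fold, adjusted p = 0.000251) and MSRB6 fell from 793 and 805 to 322 and 177 (3.19-fold, adjusted p = 0.00105). GSTU26, a glutathione S-transferase, fell from 10309 and 7998 to 4383 and 3508 (2.31-fold, adjusted p = 7.77e-05), the only 1 of 13 measured genes of that family to be called. CYP718, a cytochrome P450, rose from 660 and 546 to 4877 and 4795 (7.87-fold, adjusted p = 2.87e-05), and of the other 23 cytochrome P450 genes 1, CYP71B34, was called lower and not in every fit (-0.78 ± 0.18, adjusted p = 0.011).

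Protein turnover genes were called in both directions. Of 37 ubiquitin-conjugating and U-box genes 1 was called higher and 1 lower. Over all single-gene probe sets with a symbol 5.09% were called higher and 6.77% lower. The conjugating enzyme gene UBC29 rose from 3267 and 1872 to 6887 and 5258 (2.42-fold, adjusted p = 0.000798), and the U-box ligase gene PUB19 fell from 2649 and 2638 to 1203 and 1220 (2.17-fold, adjusted p = 5.4e-05). The RING-finger gene ATL8 rose from 4177 and 2604 to 6461 and 6496 (1.96-fold, adjusted p = 0.00172). The air arrays of UBC29 and ATL8 lay further apart than those of PUB19. MMP, a matrix metalloproteinase, fell from 1252 and 1429 to 586 and 681 (2.09-fold). The glutamine amidotransferase gene GAT1_2.1 rose from 3805 and 2409 to 7646 and 7638 in 1 of its 2 probe sets (2.52-fold, adjusted p = 0.00023). Its other probe set changed by 1.46 on the log2 scale and was not called.

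Cytoskeletal genes included the fall of an actin gene, and genes of accessory proteins were called in both directions. ACT11, an actin gene, fell from 4844 and 4111 to 2024 and 2681 (1.91-fold, adjusted p = 0.00304), and the tubulin genes TUA1 (-0.72 ± 0.15) and TUB7 (-0.44 ± 0.11) were lower in the 12-array fit but not in every fit. All 11 tubulin and actin genes had a negative change, but the median was only -0.12, and without wild-type ethylene 1 only 4 of 11 were negative and the median was 0.11. TRM19 and TRM28, of the TON1 recruiting motif family at cortical microtubules, rose from 731 and 880 to 1705 and 2261 (2.42-fold) and from 1887 and 1691 to 3636 and 3795 (2.07-fold). IQD22, of a calmodulin-binding family also known at microtubules, rose from 1699 and 2090 to 3165 and 3865 (1.85-fold, adjusted p = 0.00148). Its relatives iqd15 (1.63 ± 0.34) and IQD24 (-1.86 ± 0.46) were called in opposite directions but not in every fit. IQD23 (-0.61 ± 0.15) and TRM26 (-0.61 ± 0.17) were also lower but not in every fit. Of 15 TRM genes 2 were called higher and 1 lower, and of 15 IQD genes 2 higher and 2 lower. Over all single-gene probe sets with a symbol 5.09% were called higher and 6.77% lower.

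Transcription factors that rose included bZIP44, from 5141 and 5581 to 9297 and 9831 (1.78-fold, adjusted p = 0.0007), and LEP, an ERF-type regulator of leaf form, from 2280 and 2341 to 3918 and 4978 (1.91-fold, adjusted p = 0.00102). The other bZIP genes called, BZIP61 and bZIP52, were lower but not in every fit. None of 7 WRKY genes was called by limma, with 2 higher and 1 lower at an unadjusted p under 0.05. STZ, a zinc-finger gene that answers many stresses, was higher in the 12-array fit but not in every fit, at 658 and 1101 in air and 1292 and 1857 on ethylene (0.85 ± 0.25, adjusted p = 0.0448). The low-oxygen gene PDC2 was not called (0.41 ± 0.14, adjusted p = 0.0821). Neither were the reference genes TUB6, PEX4 and GAPC2, nor the RNA decay genes UPF3, LSM1A and LSM1B, with changes between -0.37 and 0.21.

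Some nuclear genes of plastid proteins were higher by small amounts in the 12-array fit but not in every fit. Of 20 nuclear genes with a plastid word in their annotation 4 were called higher and 0 lower, 17 had a positive change and the median was 0.26, or 14 positive without wild-type ethylene 2, and none was called in every fit. PORB lay at 28046 and 35519 in air and 40518 and 72365 on ethylene, and its adjusted p was 0.0408 with 12 arrays and 0.314 with 4. Other plastid genes called there were SBPASE (0.66 ± 0.12) and PRK (0.50 ± 0.14) of the Calvin cycle, HEMB1 (0.51 ± 0.13), LIL3:1 (0.57 ± 0.12) and LIL3:2 (0.50 ± 0.15) of chlorophyll synthesis, and FTSZ2-1 (0.43 ± 0.13) of plastid division. Among the genes called lower but not in every fit was ATOEP16-2, an outer envelope protein, at 155 and 88.3 in air and 10.1 and 20.6 on ethylene. The genes from SBPASE to ATOEP16-2 were chosen after their values were seen, so their directions are no count of plastid genes. The 5 nuclear photosynthesis genes of the fixed list, among them LHCB4.1 at 17728 and 22209 in air and 19562 and 24982 on ethylene, were not called, and 1 of them passed at an unadjusted p under 0.05. Of 69 probe sets for genes in the plastid genome 1 was called, psbB as lower, and the median change was 0.08, with 0 higher and 3 lower at an unadjusted p under 0.05.

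Most of the largest changes belonged to genes that the annotation gives by locus number only, so their products are not described here. AT5G40590 had the largest rise, from 195 and 256 to 8801 and 8953, which is 37.1-fold (5.21 ± 0.22, adjusted p = 5.79e-09). AT2G43140 lay at 6.93 and 105 in air and 1082 and 1304 on ethylene (4.51 ± 0.66), with air 1 under the offset of 16. Its change was 3.31 without air 1, 5.71 without air 2 and 3.51 with an offset of 64. The size of its rise thus depends on which air array is used and on the offset. AT5G19890 rose from 1068 and 945 to 17249 and 24641 (20.2-fold) and AT1G49570 from 1380 and 877 to 12197 and 14887 (12.1-fold). AT2G39980 rose from 3832 and 3535 to 31416 and 42268 (9.86-fold, adjusted p = 5.25e-09). The other 11 of the 16 largest rises ran from 9.59-fold for AT1G50110 to 4.89-fold for AT1G19900, and 4 of the 16 carry a symbol.

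Among the 16 largest falls 3 genes carry a symbol. AT4G26790 fell from 709 and 591 to 52.6 and 8.69 (-4.01 ± 0.43, adjusted p = 2.91e-05) and AT2G43390 fell from 442 and 333 to 6.34 and 17.9 (-3.86 ± 0.47, adjusted p = 8.51e-05), both close to the offset on ethylene. Without ethylene 1 the change of AT4G26790 was -4.75 and without ethylene 2 it was -3.27. AT1G75900 fell from 13827 and 11327 to 1506 and 1515 (8.21-fold, adjusted p = 5.25e-09). AT5G13900 fell from 4776 and 4006 to 463 and 370 (10.2-fold), AT1G29660 fell from 5046 and 3797 to 545 and 517 (8.03-fold), and AT4G25780 fell from 5852 and 6134 to 972 and 1068 (5.8-fold). Across the 16 largest falls the change lay between -2.35 for AT1G64380 and -4.01, and the highest adjusted p in any fit that left out an array was 0.0198, against 0.0332 for the 16 rises. In the fit of the 4 wild-type arrays the highest was 0.0415 for the falls and 0.0313 for the rises.

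Neighbouring genes on a chromosome were both called in 1.21% of the pairs measured. Of 5882 pairs of adjacent protein-coding genes that were both measured, 71 had both members called by the 12-array fit, 40 in the same direction and 31 in opposite directions. A called gene had a called neighbour in 12.5% of cases, against 9.66% of all pair members called, and this difference was not tested. Both members changed in every fit in 4 pairs. AT5G02540 and AT5G02550 rose (1.40 ± 0.12 and 0.98 ± 0.12), AT3G51400 and AT3G51410 rose (1.55 ± 0.23 and 0.83 ± 0.14), and AT2G48030 and AT2G48060 fell. In the fourth pair AT5G13900 fell while LEP, its neighbour, rose. Of 12 genes with several probe sets and at least 1 call, 3 had all probe sets called and 4 had probe sets with opposite signs, so a change of 1 probe set does not always stand for the gene.

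The 2 ethylene arrays did not differ from the air arrays in the same way. Over all probe sets the median change from the air mean was -0.06 in ethylene 1 and 0.09 in ethylene 2. Whether the values below reflect the response or such a shift of a whole array was not tested. Against the mean of the air arrays, ethylene 1 had 3.72% of all probe sets more than 1 log2 unit higher and 7.49% more than 1 lower, whereas ethylene 2 had 8.67% higher and 6.36% lower. Of the calls of the 12-array fit 37.8% were higher, and this share was 48.0% without ethylene 1 (1366 higher and 1480 lower) and 27.2% without ethylene 2 (536 and 1436). For the genes called in every fit, a rule that itself asks for a call without each ethylene array, the median changes were 1.21 in ethylene 1 and 1.34 in ethylene 2 for the 260 rises and -1.17 and -1.10 for the 500 falls. Over all calls of the 12-array fit they were 0.69 and 0.84 for those higher and -0.83 and -0.82 for those lower. Ethylene 2 was above ethylene 1 for 15 of the 25 symbol genes that rose in every fit and for 41 of the 54 that were called higher but not in every fit. It was also above ethylene 1 for 25 of the 35 symbol genes that fell. The same held for 40 of the 70 called lower but not in every fit. For a lower gene this means a smaller change in ethylene 2.

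**Figure D4:**
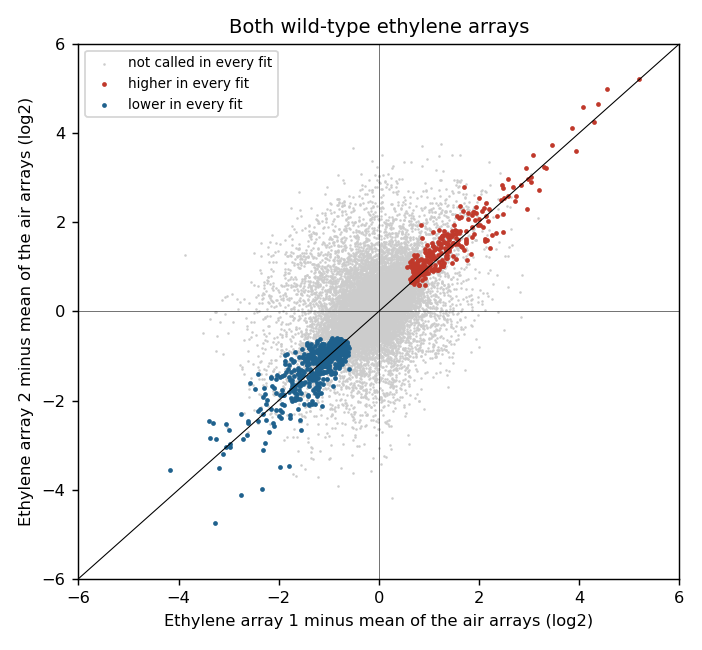
Change of each probe set in ethylene array 1 (x axis) and ethylene array 2 (y axis) from the mean of both air arrays, in log2 units, with the line of equality. The 260 red and 500 blue points, called in every fit, lie along the line, which the choice of these points by their calls without each ethylene array partly fixes; the grey points of the others reach further up on the y axis than to the right.

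The response of the same genes in the mutants was compared within the 12-array fit. The genes were chosen for large changes in wild type, which inflates any difference from another genotype, so the counts below are descriptions. Over all probe sets the responses of ein2 and wild type differed for 854 (3.75%) and those of ein5 and wild type for 121 (0.532%). The mutants' own responses were called higher for 0.475% of all probe sets and lower for 0.0396% in ein2, and higher for 0.774% and lower for 0.849% in ein5. All 16 of the largest rises had the same sign in ein2, where 11 were also called, and 5 were smaller than in wild type at an adjusted p under 0.05. Of the 16 largest falls 8 had the same sign in ein2, 0 were called there by limma (2 at an unadjusted p under 0.05), and 14 differed, with a median ein2 response of -0.03. In ein5 all 32 had the wild-type sign, 14 rises and 8 falls were called, and 3 rises and 9 falls were smaller than in wild type. CYP718 and XTH26 were called in ein2 too, with larger log2 changes that did not differ past the threshold. Both lay lower in ein2 than in wild type in air and also on ethylene. CYP718 went in ein2 from 48.7 and 67 to 1045 and 1196, against 4877 and 4795 on ethylene in wild type. Its responses differed by 0.97 ± 0.44 (adjusted p = 0.282). XTH26 went in ein2 from 14.6 and 11.9, under the offset of 16, to 264 and 214. On ethylene in wild type it lay at 1110 and 1474. Its responses differed by 0.34 ± 0.61 (adjusted p = 0.853), a value that depends on the offset.

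Symbol genes with changes over 2-fold in every fit, were 17 rises and 25 falls. In ein2 16 rises and 17 falls had the wild-type sign, and 8 rises and 20 falls differed from wild type, all by a smaller or opposite response. In ein5 all 17 rises and 23 falls had that sign, and the 6 genes that differed were falls. Whether rises and falls differ in this was not tested. TBL37, which fell in wild type, lay at 7245 and 7852 in ein2 air and 6925 and 7370 in ein2 on ethylene (difference 2.20 ± 0.16, adjusted p = 5.73e-06). PME61 lay at 2680 and 2747 in ein2 air and 3361 and 3624 on ethylene (difference 2.01 ± 0.24, adjusted p = 0.000396). GH3.17 in ein2 lay at 12347 and 12707 in air and 11795 and 12862 on ethylene (difference 1.32 ± 0.20, adjusted p = 0.00218). In wild type all 3 of these genes fell. M10 went the opposite way in ein2, from 1933 and 1636 in air to 641 and 740 on ethylene, a response called there (-1.35, adjusted p = 0.0345) and different from wild type by -2.92 ± 0.37 (adjusted p = 0.000575). LEA18 stood at 13700 and 10848 in ein2 air, at 10862 and 11217 in ein2 on ethylene, and at 5049 and 4339 in ein5 air, against 2791 and 4001 in wild-type air. UGT71C1 is one of the 6 symbol genes that differed in ein5, with 3195 and 2296 in ein5 air and 2136 and 2752 on ethylene (difference 1.37 ± 0.24, adjusted p = 0.0205).

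**Figure D5:**
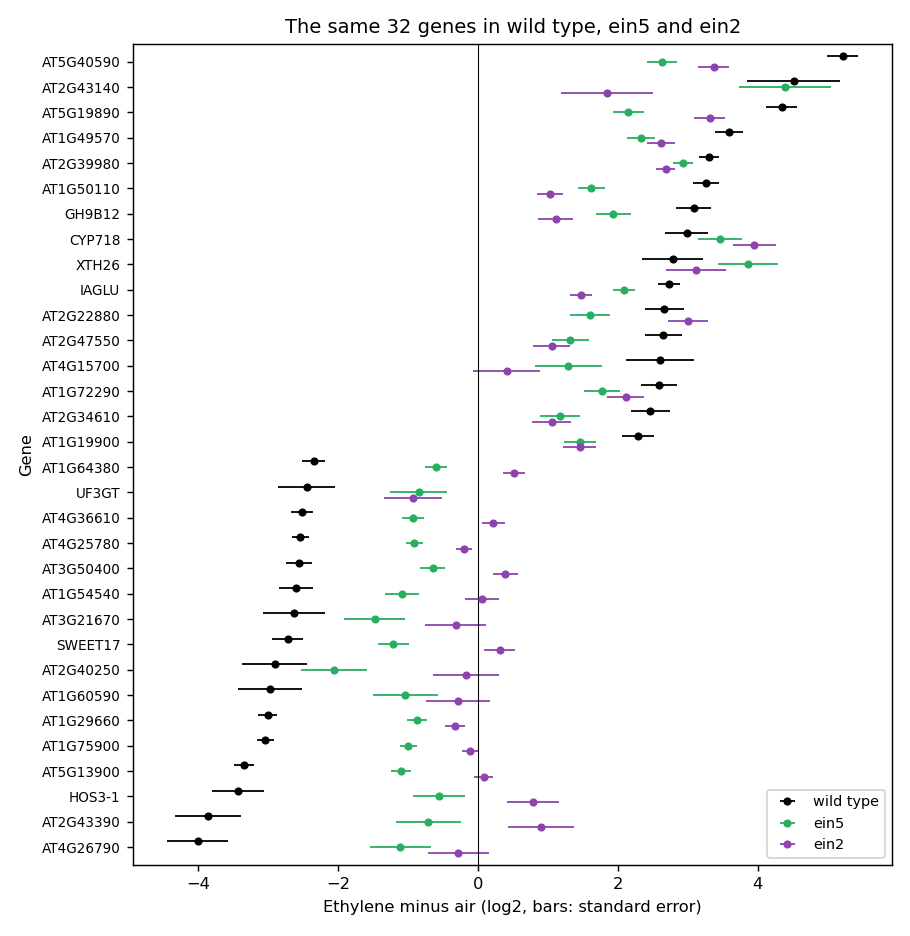
Log2 change on ethylene with its standard error for the 16 largest rises and 16 largest falls of wild type, in wild type (black), ein5 (green) and ein2 (purple), from the 12-array fit. The rises are on the right of 0 in all 3 genotypes, while among the falls the ein5 values lie between wild type and 0 and the ein2 values lie around 0.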

How the data were processed

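Transcripts of 4 wild-type samples, and of 8 mutant samples used for the spread, were measured on single-colour Affymetrix arrays. The deposited values are intensities on a linear scale for 22746 probe sets; per the labels' protocols the authors used GeneChip Suite and GeneSpring and divided each sample by its median of values above 10. The deposited arrays instead share a mean, trimmed by 2% at each end, of 2480.3 to 2487.2, with medians of 922 to 1039, so a scaling not given in the sources used here had been applied. Each array was then scaled to a common median of its values above 10, an offset of 16 was added and log2 taken. Levels are printed without the offset, and the log2 change is a difference of group means.

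The limma package (version 3.58.1, R 4.3.3) was fitted to all 12 arrays as 6 group means, two-sided, with variances that follow the level, and Benjamini-Hochberg adjustment over all probe sets at 0.05. The 12-array and 4-array fits were run on simulated data with added changes. The rule of a call in every fit was not part of that run, and no call here rests on it. A probe set was called in every fit where this fit, the fit of the 4 wild-type arrays and the 4 fits without 1 wild-type array agreed in call and direction. A fit without 1 array leaves a lone sample in that group, which is assumed to vary like the others. The number of arrays limits the precision, since an exact permutation test of 2 arrays against 2 cannot reach 0.05.

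Named genes are the 16 largest rises and 16 largest falls over 2-fold among single-gene probe sets called in every fit, and called members of gene lists and of families found through the words of the annotation. Genes with a symbol outside these were added after their values were seen. The members and lists were chosen with earlier results of these data known. Probe sets with several genes (503) or not listed in the annotation (8730) were not named. Gene names come from the platform annotation and the TAIR10.1 gene table. Promoter and protein sequences were not used here. Alternatives tried were quantile normalization, values as deposited, offsets of 64 and 1, a mean intensity of at least 200, no variance trend, array weights, a replicate block and leaving out each wild-type array.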

Additional observations from a re-analysis of the deposited data

Results flagged for a closer look

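Values for which the ethylene response of a mutant differed from that of wild type, by the interaction contrast of the limma 12-array fit, are given here for the 32 genes with the largest wild-type changes. A negative value of a gene that rose in wild type and a positive value of a gene that fell both mean a smaller or opposite response in the mutant. The genes were chosen in wild type, which inflates these differences, and the spread used is shared by the 6 groups, while the median difference between replicates was 0.25 and 0.32 in the wild-type groups against 0.19 to 0.21 in the mutant ones. Adjusted p-values (Benjamini-Hochberg over all probe sets) lay between 9.61e-07 and 0.0362 for ein2 and between 0.000112 and 0.049 for ein5.

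In ein2 the rises were smaller for AT1G50110 by -2.23 ± 0.26, GH9B12 by -1.97 ± 0.36, AT5G40590 by -1.84 ± 0.31, AT2G47550 by -1.60 ± 0.37 and IAGLU by -1.26 ± 0.23 in log2 units. The falls differed by 4.77 ± 0.66 for AT2G43390, 4.22 ± 0.53 for HOS3-1, 3.73 ± 0.60 for AT4G26790, 3.43 ± 0.20 for AT5G13900 and 3.03 ± 0.31 for SWEET17. They differed by 2.94 ± 0.26 for AT3G50400, 2.93 ± 0.17 for AT1G75900, 2.86 ± 0.22 for AT1G64380, 2.74 ± 0.22 for AT4G36610 and 2.74 ± 0.66 for AT2G40250. The remaining differences were 2.68 ± 0.19 for AT1G29660, 2.68 ± 0.64 for AT1G60590, 2.66 ± 0.34 for AT1G54540 and 2.33 ± 0.17 for AT4G25780.

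In ein5 the rises were smaller for AT5G40590 by -2.58 ± 0.31, AT5G19890 by -2.19 ± 0.31 and AT1G50110 by -1.64 ± 0.26. The falls differed by 2.88 ± 0.53 for HOS3-1, 2.25 ± 0.20 for AT5G13900, 2.14 ± 0.19 for AT1G29660 and 2.04 ± 0.17 for AT1G75900. Smaller differences were 1.90 ± 0.26 for AT3G50400, 1.75 ± 0.22 for AT1G64380, 1.62 ± 0.17 for AT4G25780, 1.60 ± 0.22 for AT4G36610 and 1.51 ± 0.31 for SWEET17.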

How the results depend on the processing

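The total of 2298 calls in wild type was 1323 without a variance trend (461 higher, 862 lower), 1309 with array weights (448 and 861) and 813 with only the wild-type arrays fitted (289 and 524). Leaving out 1 wild-type array gave 1589 to 2846 calls, 536 to 1366 higher and 938 to 1480 lower; the highest count came without wild-type ethylene 1, and without wild-type ethylene 2 the calls were 536 higher and 1436 lower. Calls over 2-fold lay between 690 and 1058 without 1 array. After quantile normalization 638 probe sets were called in every fit, 575 of them among the 760, and without a variance trend 0, because the 4-array fit then called 0. Of the 32 named genes 6 instead of 12 differed in ein5 without a variance trend. Without ein2 air 1, whose label gives another growth text, 1972 probe sets were called, 1946 of them shared, and 17 named genes differed in ein2 and 10 in ein5. This setting and the every-fit counts were added after seeing the data. The causes were not tested. For the 67 probe sets over 2-fold in every fit that are among the 32 or carry a symbol, all 869 log2 changes over 13 alternatives kept direction and call, which the choice of these genes partly fixes.

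The values showed no pairing by replicate number, since same-numbered deviations correlated at 0.073 in wild type, 0.0069 in ein2 and -0.025 in ein5. These correlations cannot show whether same-numbered samples were handled together. With a replicate block 2384 probe sets were called, 2132 of them shared, and 17 named genes differed in ein2 and 13 in ein5. Signal limits the dim genes: values at or below the offset of 16 made up 3.86% to 6.16% of each wild-type array.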
